A study of Mus musculus with 12 samples.

Results

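Translation factors are the proteins that, with the ribosome, start, lengthen and end a protein chain. The genes described here are those whose symbols in the expression files begin with Eif1 to Eif6, Eef1, Eef2, Etf1 or Gspt, leaving out Eif2ak3 and Eif4ebp1. Of 66 genes with these prefixes, 64 were kept, out of 23991 gene names in all. None of the 64 was listed more than once. The filter on low values (1 FPKM or more in at least 3 of the 12 libraries) was passed by 61 of the 64, and by 10126 genes in all. The members that did not pass were Eif4e1b, a relative of the cap-binding protein at 0 FPKM in every library, and Eef1a2 and Gspt2, which reached at most 0.0262 and 0.0968 FPKM.

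The 12 libraries of polyadenylated RNA came from CD4+ T cells of male C57BL/6 mice aged 8 to 10 weeks, in 4 groups of 3. These were Adcy10-/- cells with polarizing cytokines, WT cells with polarizing cytokines, Adcy10-/- cells in baseline medium and WT cells in baseline medium. Adcy10 encodes soluble adenylyl cyclase, which makes the messenger cAMP, and the study asked what its loss does to T cells cultured toward the Th17 type. One culture protocol is given for all libraries: 18 hours on plate-bound antibody to CD3 (10 µg/mL) with antibody to CD28 (2 µg/mL). It also lists IL-1β and IL-23 at 20 ng/mL each, IL-6 at 25 ng/mL, and antibodies against IFNγ and IL-4 at 1 µg/mL each, and it does not say which of these additions baseline medium lacked. Spleen and lymph node are both named as the source, and CD4+ cells were enriched by removing other cells on magnetic beads. The allele behind Adcy10-/- is not described, and no label says whether replicates were separate animals, so the p-values measure only the spread between these samples, which may be technical.

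Initiation begins when eIF2 brings the first tRNA to the small ribosomal subunit, which eIF1, eIF1A, eIF3 and eIF5 hold ready to scan. The cap-binding complex eIF4F, made of the cap binder eIF4E, the scaffold eIF4G and the helicase eIF4A, loads that subunit onto the mRNA. Elongation then runs on eEF1A, which delivers each aminoacyl-tRNA, and eEF2, which moves the ribosome on, until eRF1 and eRF3 release the chain. T cells raise protein synthesis steeply when stimulated through their receptor.

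Summed FPKM ran between 547870 and 594750 over the 12 libraries, and 9778 to 9925 genes reached 1 FPKM. FPKM carries no read depth, so the depth behind a value is unknown. Of 8 CD4 T cell markers looked up, all were detected in every library, the lowest (Trat1) at 4.81 FPKM or more, with a summed level of 1327 to 1750 FPKM. Adcy10 itself read 0 FPKM in every library, those of WT cells as well, so it gives no check of the genotype labels. The first principal component (34.3% of the variance) separated the media and the second (22.6%) set the 4 libraries numbered replicate 1 apart from the other 8. Fits without these 4 libraries, which leave replicate number out, are given for Eif4a2 in WT cells, Eif4enif1, Eef1e1, Cyfip2 and Hbs1l. They are also given for the counts of members passing, and other results are not given without these libraries.

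The translation factor genes were among the most abundant transcripts of these cells. Together all members took 3.79% to 4.01% of each library's summed FPKM. The median tested member averaged 100.5 FPKM over the 12 libraries, against 11.7 FPKM for the median of all tested genes. A mean above 100 FPKM was reached by 31 of the 61 tested members, against 8.29% of all tested genes, and a mean above 1000 FPKM by 4 members, against 0.938%. The elongation group, with Eef1e1 and Eef2k counted in it, made up 57.6% of the members' sum. The eIF3 subunits gave 14.6%, eIF5A and eIF6 10.6%, the eIF4F group (with Eif4a3) 8.88% and the scanning group (with Eif1ad) 5.76%.

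**Figure D1:**
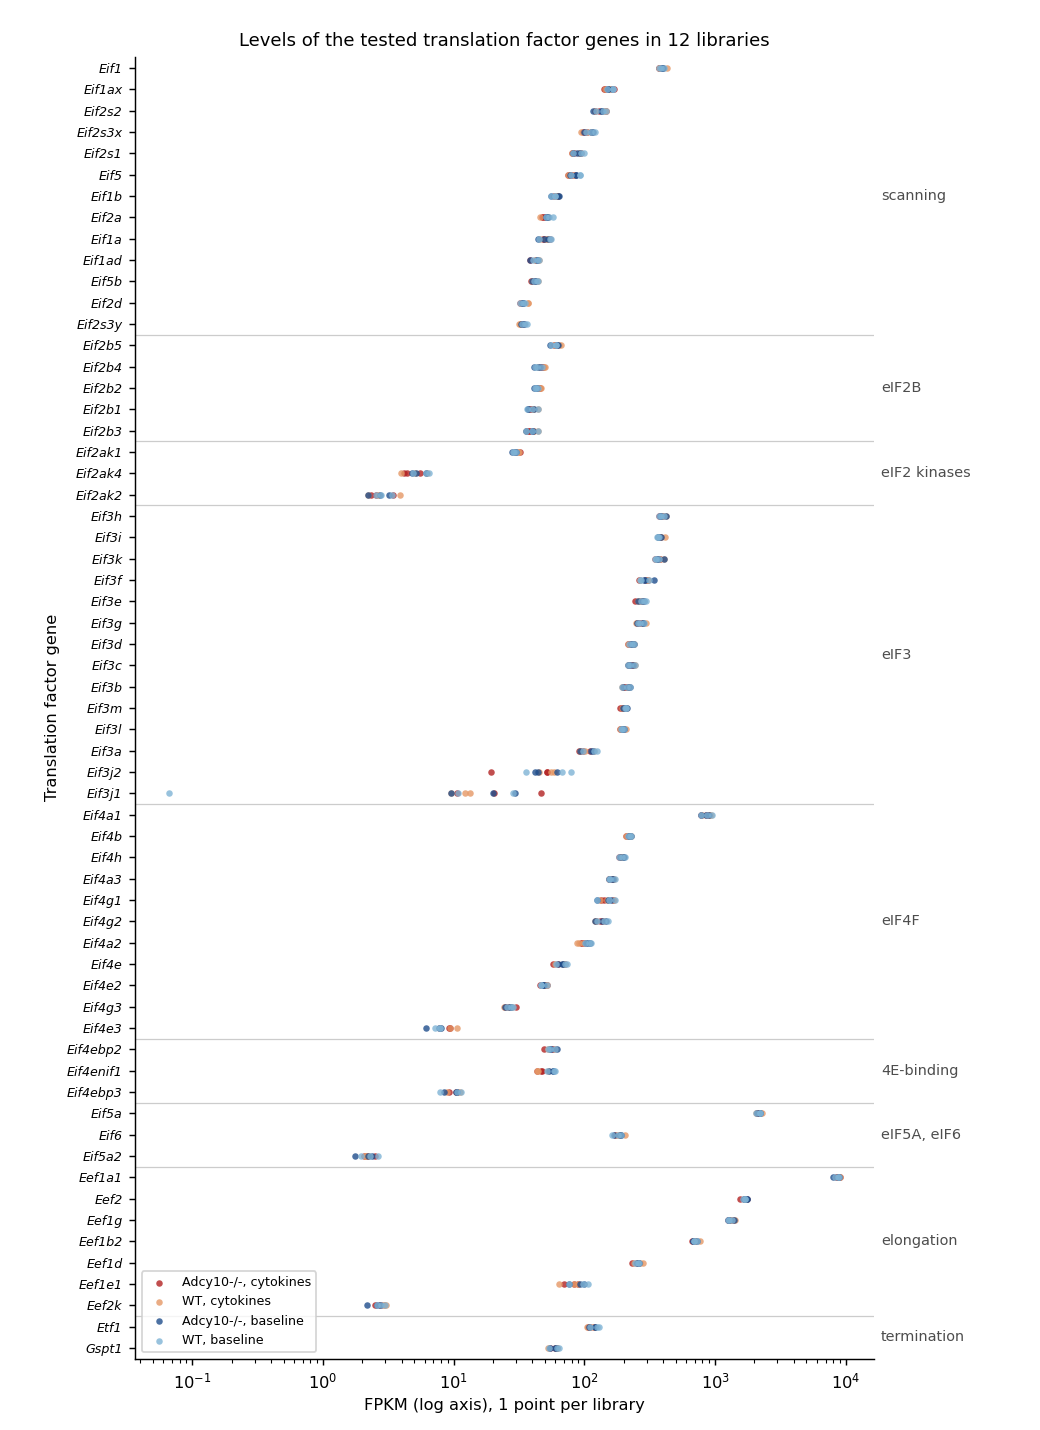
FPKM (log axis) of the 61 tested translation factor genes, grouped by role, with 1 point for each of the 12 libraries coloured by group. Mean levels span from 8661 FPKM (Eef1a1) to 2.21 FPKM (Eif5a2), and the points of a gene lie close together in all genes but Eif3j1 and Eif3j2.

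Among the elongation factors, Eef1a1, which encodes the tRNA carrier eEF1A1, was the highest of all genes in each of the 12 libraries. It stood at 8951, 8448 and 8564 FPKM in Adcy10-/- cells with cytokines, at 8652, 9034 and 8870 FPKM in WT cells with cytokines, at 8857, 8047 and 8698 FPKM in Adcy10-/- cells at baseline and at 8801, 8336 and 8670 FPKM in WT cells at baseline. The 4 groups overlapped. Eef2, the translocase, averaged 1690 FPKM over the 12 libraries. The exchange-factor subunits that reload eEF1A averaged 1313 FPKM (Eef1g), 701 FPKM (Eef1b2) and 255 FPKM (Eef1d). Eef1e1, whose product belongs to the multi-tRNA-synthetase complex, averaged 85.7 FPKM. The kinase that switches eEF2 off, Eef2k, was one of the lowest tested members at 2.73 FPKM.

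Eif5a, whose product helps the ribosome through difficult stretches such as runs of proline, was second among the members. Its levels were 2092, 2216 and 2079 FPKM in Adcy10-/- cells with cytokines, 2066, 2282 and 2198 FPKM in WT cells with cytokines, 2088, 2200 and 2193 FPKM in Adcy10-/- cells at baseline and 2057, 2204 and 2225 FPKM in WT cells at baseline. These groups overlapped as well. Eif6, which keeps the large subunit from joining too early, averaged 183 FPKM. The release factors Etf1 and Gspt1 averaged 115 and 58.6 FPKM.

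The eIF3 subunits, which form the largest initiation factor, lay between 106 and 392 FPKM on average, apart from the loosely attached eIF3j treated below. Eif3h was the highest of them, at 398, 384 and 372 FPKM in Adcy10-/- cells with cytokines, 396, 422 and 387 FPKM in WT cells with cytokines, 418, 383 and 381 FPKM in Adcy10-/- cells at baseline and 407, 382 and 374 FPKM in WT cells at baseline. No group stood apart. Eif3i and Eif3k followed at 376.5 and 369 FPKM, and Eif3a, which encodes the largest core subunit, was the lowest of the remaining subunits at 106 FPKM.

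In the scanning group Eif1, whose product guards the choice of start codon, was the highest. It read 370.2, 390.0 and 374 FPKM in Adcy10-/- cells with cytokines, 399, 431 and 375 FPKM in WT cells with cytokines, 398, 392 and 391 FPKM in Adcy10-/- cells at baseline and 405, 372 and 382 FPKM in WT cells at baseline. Its values in Adcy10-/- cells lay lower with cytokines than at baseline without overlap. The genes for the eIF2 subunits averaged 88.2 FPKM (Eif2s1), 134 FPKM (Eif2s2) and 107 FPKM (Eif2s3x). Eif5, which triggers GTP hydrolysis on eIF2, and Eif5b, which joins the ribosomal subunits, averaged 82.4 and 41.8 FPKM.

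The 5 subunits of eIF2B, the exchange factor that recharges eIF2 and on which stress signalling converges, lay within 39.4 to 60.3 FPKM. The highest was the catalytic subunit Eif2b5, at 60.2, 58.7 and 60.9 FPKM in Adcy10-/- cells with cytokines, 58.3, 66.6 and 63.5 FPKM in WT cells with cytokines, 54.2, 61.5 and 62.4 FPKM in Adcy10-/- cells at baseline and 55.2, 60.9 and 60.9 FPKM in WT cells at baseline. Of the 3 eIF2 kinases among the members, which leave out Eif2ak3, the heme-sensitive Eif2ak1 was the only one above 10 FPKM. It read 32.0, 29.7 and 29.3 FPKM in Adcy10-/- cells with cytokines, 29.9, 30.8 and 31.8 FPKM in WT cells with cytokines, 30.0, 27.9 and 29.4 FPKM in Adcy10-/- cells at baseline and 28.8, 28.4 and 30.1 FPKM in WT cells at baseline. Both genes overlapped between all 4 groups. Eif2ak4, the sensor of missing amino acids, averaged 5.24 FPKM, and Eif2ak2, the sensor of double-stranded RNA, 2.83 FPKM.

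Within eIF4F and its partners the helicase gene Eif4a1 led, at 784, 849.6 and 878 FPKM in Adcy10-/- cells with cytokines, 788.5, 937 and 902 FPKM in WT cells with cytokines, 778, 848 and 892 FPKM in Adcy10-/- cells at baseline and 783, 862 and 947.5 FPKM in WT cells at baseline. In each group the replicate numbered 1 was the lowest. The helicase cofactors Eif4b and Eif4h averaged 219 and 193 FPKM, the scaffold Eif4g1 148 FPKM and the cap binder Eif4e 66.2 FPKM. Among the proteins that block eIF4E, Eif4ebp2 stood at 56.0, 48.7 and 57.1 FPKM in Adcy10-/- cells with cytokines, 53.6, 52.9 and 59.6 FPKM in WT cells with cytokines, 55.3, 54.5 and 61.2 FPKM in Adcy10-/- cells at baseline and 55.0, 52.3 and 59.7 FPKM in WT cells at baseline. Its groups overlapped, and Eif4ebp3 was lower at 10.0 FPKM.

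Several factors exist as pairs of genes, and 1 copy often carried nearly all of the signal. Eef1a2 and Gspt2 were at or near 0 beside Eef1a1 and Gspt1, and Eif5a2 gave 0.0843% to 0.119% of the summed FPKM of Eif5a and Eif5a2. Eif4a2 gave 8.50% to 12.4% of the Eif4a pair, Eif4g3 14.0% to 17.1% of its sum with Eif4g1, and Eif1b 12.5% to 14.5% of its sum with Eif1. Other pairs were closer in level. The X-linked Eif1ax, for eIF1A, gave 74.2% to 77.5% of its sum with Eif1a, and the Y-linked Eif2s3y gave 21.6% to 26.2% of its sum with the X-linked Eif2s3x. Eif4e2, for a cap binder that represses translation, gave 39.3% to 45.2% of its sum with Eif4e. For each of these pairs, no stretch of 50 bases in the reference transcripts used was shared by both copies.

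Eif3j1 and Eif3j2 were the exception, because 90.8% of the 50-base windows of the Eif3j2 transcript also occur in Eif3j1. Of the windows of the longer Eif3j1 transcript, 39.4% occur in Eif3j2, so most of Eif3j1 is its own. Eif3j1 read 10.7, 20.4 and 46.4 FPKM in Adcy10-/- cells with cytokines, 13.4, 9.56 and 12.3 FPKM in WT cells with cytokines, 20.0, 29.3 and 9.60 FPKM in Adcy10-/- cells at baseline and 28.7, 10.8 and 0.0661 FPKM in WT cells at baseline. Eif3j2 read 52.2, 51.7 and 19.3 FPKM in Adcy10-/- cells with cytokines, 44.9, 55.3 and 58.3 FPKM in WT cells with cytokines, 44.2, 42.1 and 61.4 FPKM in Adcy10-/- cells at baseline and 35.6, 67.1 and 78.8 FPKM in WT cells at baseline. Where 1 copy was high the other was low, as in the third replicate of Adcy10-/- cells with cytokines and of WT cells at baseline. Their sum held within 58.4 to 78.9 FPKM over the 12 libraries. How the authors' processing divided shared reads is not given in the sources used here, so the split is treated as uncertain and the sum is read as a level of eIF3j, a subunit known to loosen the hold of the small ribosomal subunit on mRNA. The sum did not pass in any of the 6 contrasts, with the largest difference at -0.19 (SE 0.092) between cytokines and baseline in WT cells (limma adjusted p = 0.312).

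**Figure D2:**
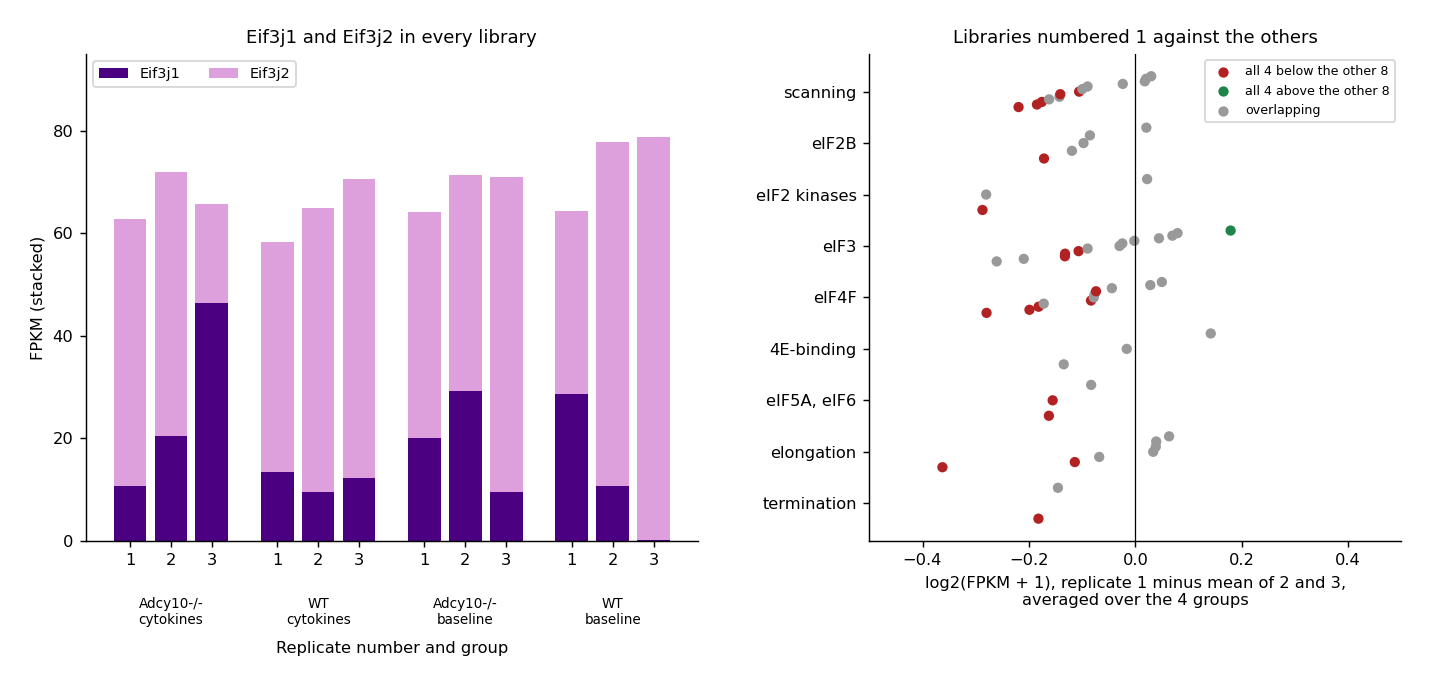
Left, stacked FPKM of Eif3j1 (dark) and Eif3j2 (light) in every library, in which the height of the stack varies far less than the split. Right, difference in log2(FPKM + 1) between replicate 1 and the mean of replicates 2 and 3, averaged over the 4 groups, for 60 members by role (Eif3j1 not drawn). Red points are the 20 members lower in all 4 libraries numbered 1 than in all other 8, and the green point is Eif3f.

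The members varied little over the 12 libraries. The median range from the lowest to the highest library was 0.28 on the log2(FPKM + 1) scale for the 61 members, against 0.37 for all tested genes. Restricted to means of at least 5 FPKM, the medians were 0.27 for 58 members and 0.33 for 7247 genes. These comparisons were not matched on level: the median tested member averaged 100.5 FPKM, against 11.7 FPKM for all tested genes.

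Polarizing cytokines changed few translation factor genes. Differences are given on the scale log2(FPKM + 1), which understates changes of genes near 1 FPKM, and tested with limma over the 10126 genes with Benjamini-Hochberg adjustment and a threshold of 0.05. In Adcy10-/- cells 0 of 61 members passed, against 4.27% of all tested genes (2.14% higher and 2.12% lower), with 3 members at unadjusted p under 0.05. In WT cells 1 of 61 members passed, as lower, against 2.28% of all tested genes called lower, 2.65% called higher and 4.93% in either direction, again with 3 members at unadjusted p under 0.05. The median difference was -0.02 in Adcy10-/- cells, against -0.02 for all tested genes, and 0.01 in WT cells, against -0.01.

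The member that passed was Eif4a2, which encodes the second form of the eIF4A helicase. It stood at 94.7, 99.0 and 95.3 FPKM in Adcy10-/- cells with cytokines, against 109.6, 107 and 103 FPKM in Adcy10-/- cells at baseline. In WT cells it stood at 97.8, 87.0 and 90.7 FPKM with cytokines, against 109, 112 and 100.3 FPKM at baseline. With cytokines every library lay below every baseline library of its genotype. In WT cells Eif4a2 fell by 0.22 on the log2 scale (SE 0.056, limma adjusted p = 0.0497), a 14.0% drop. In Adcy10-/- cells the difference was -0.14 (SE 0.056) and did not pass (limma adjusted p = 0.222). The difference between these effects, tested as an interaction, was 0.07 (SE 0.080, limma adjusted p = 1.00). Eif4a1 differed by 0.00 (SE 0.086) in Adcy10-/- cells and by 0.02 (SE 0.086) in WT cells. The WT call lay close to the threshold. Its limma adjusted p was 0.217 when the second WT baseline library was left out, 0.154 without the second WT cytokine library and 0.0800 without the 4 libraries numbered 1. In bulk RNA, fewer cells of a type and less RNA per cell cannot be told apart.

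Libraries with the same replicate number deviated together within each cytokine comparison, so the fit with replicate number as a block is given beside it. With the block, 1 of 61 members passed in Adcy10-/- cells, as lower, against 5.98% of all tested genes lower and 4.74% higher. In WT cells 3 of 61 passed, all lower, against 7.43% lower and 7.41% higher. With a block for each number within each genotype the members' counts were again 1, against 6.37% lower and 5.41% higher, and 3, against 7.5% lower and 8.05% higher. With the block across genotypes they were Eif4enif1 in both genotypes, and Eif4a2 and Eef1e1 in WT cells. The interactions of Eif4a2 and Eef1e1 did not pass with that block (limma adjusted p = 0.999 for each). Eif4enif1 encodes the transporter that carries eIF4E into the nucleus and holds it in processing bodies. It read 43.0, 47.3 and 46.9 FPKM in Adcy10-/- cells with cytokines, against 53.9, 57.3 and 57.5 FPKM in Adcy10-/- cells at baseline, with no overlap. In WT cells it read 43.7, 44.0 and 52.2 FPKM with cytokines, against 52.0, 59.1 and 59.9 FPKM at baseline, where the third cytokine library just reached the lowest baseline library. The difference was -0.29 (SE 0.078) in Adcy10-/- cells and -0.28 (SE 0.078) in WT cells. Without the block the limma adjusted p was 0.0621 and 0.0627 in those cells, and with it 0.00551 and 0.00599. Without the 4 libraries numbered 1 and with no block, the differences were -0.28 and -0.30 (limma adjusted p = 0.138 and 0.0749).

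Eef1e1 passed in WT cells with the block alone. It read 69.6, 89.6 and 82.6 FPKM in Adcy10-/- cells with cytokines, against 76.8, 92.9 and 98.8 FPKM at baseline. In WT cells it read 64.5, 89.5 and 83.0 FPKM with cytokines, against 76.1, 97.6 and 107 FPKM at baseline. The groups overlapped in both genotypes, while each cytokine library lay below the baseline library of the same number. The difference in WT cells was -0.24, with limma adjusted p = 0.447 without the block and 0.0176 with it. In Adcy10-/- cells the difference was -0.15, with limma adjusted p = 0.770 without the block and 0.120 with it. Leaving out 1 library moved the size of the WT difference, fitted with no block: it was -0.38 without WT baseline replicate 1, -0.14 without WT baseline replicate 3 and -0.10 without WT cytokines replicate 1. In Adcy10-/- cells it ran from -0.25 to -0.05 over the libraries left out. Without the 4 libraries numbered 1 it was -0.15 in Adcy10-/- cells (limma adjusted p = 0.443) and -0.24 in WT cells (limma adjusted p = 0.117). None of these fits holds the block, so they do not test the call made with it. Eef1e1 also lay lower in all 4 libraries numbered 1 than in the other 8.

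The summed markers of macrophages and monocytes moved with the medium in Adcy10-/- cells. The 6 markers found summed in these cells to 21.3 to 28.0 FPKM with cytokines, against 15.1 to 20.2 FPKM at baseline. In WT cells they summed to 29.0 to 102 FPKM with cytokines, against 20.0 to 65.4 FPKM at baseline. Lyz2 made up most of each sum, at 11.8 to 93.5 FPKM over the 12 libraries. Cd68 read 2.60 to 5.97 FPKM and Cd14 at most 1.74 FPKM. Csf1r, Emr1 and Fcgr1, which define macrophages, stayed below 1 FPKM in all 12 libraries, and the part of these cells in the members' values was not tested.

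**Figure D3:**
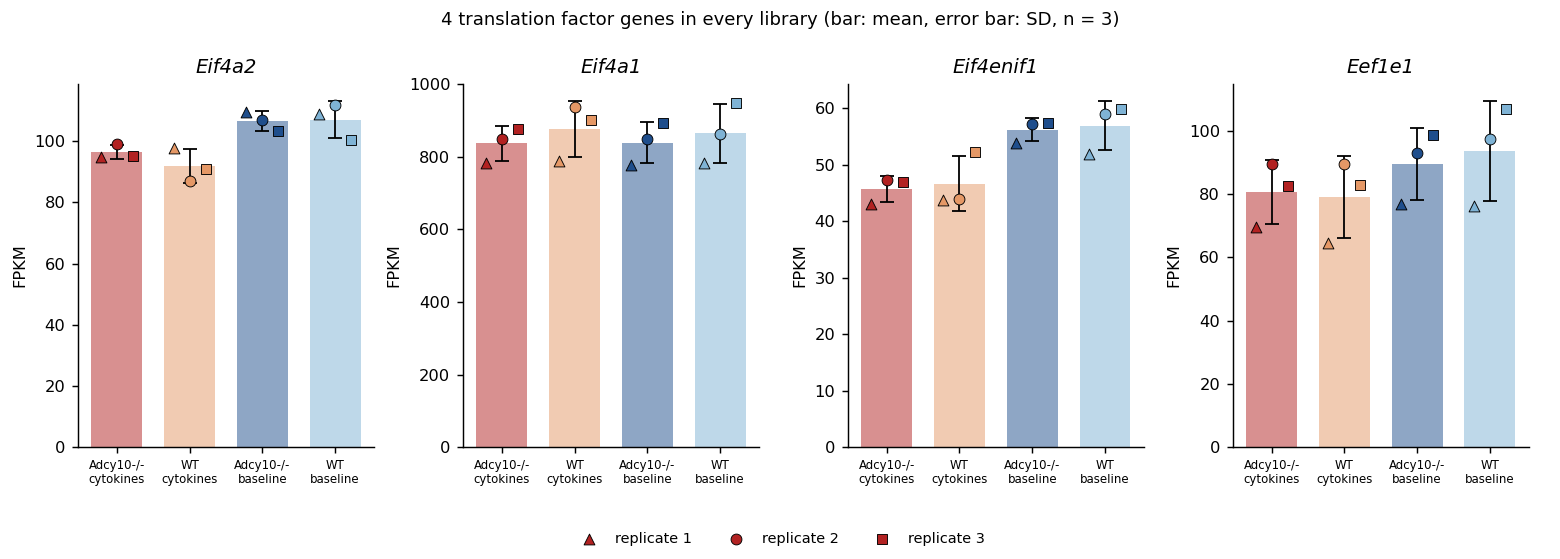
FPKM of Eif4a2, Eif4a1, Eif4enif1 and Eef1e1 in every library, with bars at the group mean, error bars of 1 SD (n = 3) and symbols for the replicate number. Eif4a2 and Eif4enif1 sit lower in the cytokine groups, while Eif4a1 sits between 778 and 947.5 FPKM with replicate 1 lowest in each group.

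Since Adcy10 makes cAMP, promoters were searched for the cAMP response element, the site of the cAMP-responsive factor CREB. RefSeq promoter windows of 250 bases before to 50 after each annotated start were matched for 49 of the 64 members, with 64 starts. Both strands were searched. The full element TGACGTCA occurred at 1 of 64 starts (1.56%), that of Eef2, against 3.35% of 9743 starts of tested genes. The shorter CGTCA, which lies within the full element, occurred at 30 of 64 starts (46.9%), against 33.1%. The E-box CACGTG, the site of Myc and its partners, occurred at 14 of 64 starts (21.9%), against 10.5%. Starts of the same gene can share bases. A match describes letters in the window and does not show a bound site.

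The promoters below are shown because Eif4a2 and Eif4enif1 had the smallest p-values for cytokines among the members in both genotypes, Eif4a1 is the copy of Eif4a2 that did not pass, and Eef2 carries the full element. The first 3 are the 150 bases before the annotated start, for Eif4enif1 the most upstream of 4 starts, and the last is 20 bases before to 10 bases after the start. All are from RefSeq, build GRCm38.p6, printed 5′ to 3′ on the gene's strand, with capitals on the motif CGTCA or its complement TGACG, or on the full element. The expression files rest on an older build, so no other coordinates are given.
Eif4a2, chr16:23107318-23107467, plus strand: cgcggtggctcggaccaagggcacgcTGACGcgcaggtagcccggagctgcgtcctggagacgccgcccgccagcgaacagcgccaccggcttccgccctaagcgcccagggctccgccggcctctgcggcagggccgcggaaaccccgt
Eif4a1, chr11:69672424-69672573, minus strand: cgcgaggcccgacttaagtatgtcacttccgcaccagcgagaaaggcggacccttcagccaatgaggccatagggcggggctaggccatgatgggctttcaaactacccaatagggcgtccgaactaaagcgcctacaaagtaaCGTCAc
Eif4enif1, chr11:3202203-3202352, plus strand: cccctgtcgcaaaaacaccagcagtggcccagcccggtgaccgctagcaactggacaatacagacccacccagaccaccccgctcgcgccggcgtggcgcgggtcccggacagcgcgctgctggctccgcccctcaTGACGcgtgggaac
Eef2, chr10:81176611-81176640, plus strand: cgacctataaaaggccgggcgtTGACGTCA
The short motif was present once in each of the first 3 windows, which are shorter than the windows searched. Whether the motif plays a part in any difference was not tested. Eef2 itself differed by -0.03 (SE 0.047) between Adcy10-/- and WT cells with cytokines and by 0.04 (SE 0.047) at baseline, and neither passed (limma adjusted p = 1.00 for each).

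The largest difference upward outside the Eif3j copies belonged to Eif4e3, an atypical member of the cap-binding family. It read 9.20, 9.30 and 7.90 FPKM in Adcy10-/- cells with cytokines, against 6.10, 7.76 and 7.96 FPKM at baseline. In WT cells it read 10.6, 7.83 and 9.45 FPKM with cytokines, against 7.89, 7.16 and 7.80 FPKM at baseline. The groups overlapped in both genotypes, and the difference of 0.25 (SE 0.11) in each did not pass (limma adjusted p = 0.325 in Adcy10-/- cells and 0.271 in WT cells).

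By role, all 5 eIF2B differences with cytokines were above 0 in both genotypes, against 42.4% and 45.9% of all tested genes, and none passed. Their medians were 0.02 in Adcy10-/- cells and 0.08 in WT cells. The smallest, Eif2b3 in Adcy10-/- cells, was 0.0025 (SE 0.0905). Genes of a role were read in the same libraries and are not independent, and the counts by role were not repeated under other scalings. Eif2b2 averaged 45.0 ± 0.857 FPKM in Adcy10-/- cells with cytokines and 42.4 ± 1.07 FPKM at baseline, and 45.6 ± 1.08 FPKM in WT cells with cytokines and 43.1 ± 1.14 FPKM at baseline (SD, n = 3 each). Its groups did not overlap in either genotype, but its differences of 0.08 and 0.08 did not pass (limma adjusted p = 0.419 and 0.359). The eIF3 subunits had 3 of 14 differences above 0 in Adcy10-/- cells and 9 of 14 in WT cells, and the 7 tested elongation genes 2 and 6. Both release factors were below 0 in WT cells, with Etf1 at -0.11 and Gspt1 at -0.03. None of these passed. Over the whole family, 23 of 61 differences were above 0 in Adcy10-/- cells, against 42.4% of all tested genes, and 33 of 61 in WT cells, against 45.9%. With median-ratio scaling the counts were 29 and 35, against 48.7% in each genotype. With quantile normalization they were 30 and 24, against 47.8% and 47.0%, so neither leaning holds across scalings.

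Groups that did not overlap were no more common among the members than among all genes. In Adcy10-/- cells 2 of 61 members were higher in all 3 cytokine libraries (Eif2b2, Eif2b4; 9.28% of all tested genes) and 4 were lower (Eif1, Eif2a, Eif4a2, Eif4enif1; 12.3%). In WT cells 2 were higher (Eif1b, Eif2b2; 10.5%) and 2 were lower (Eif2s3y, Eif4a2; 10.3%).

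**Figure D4:**
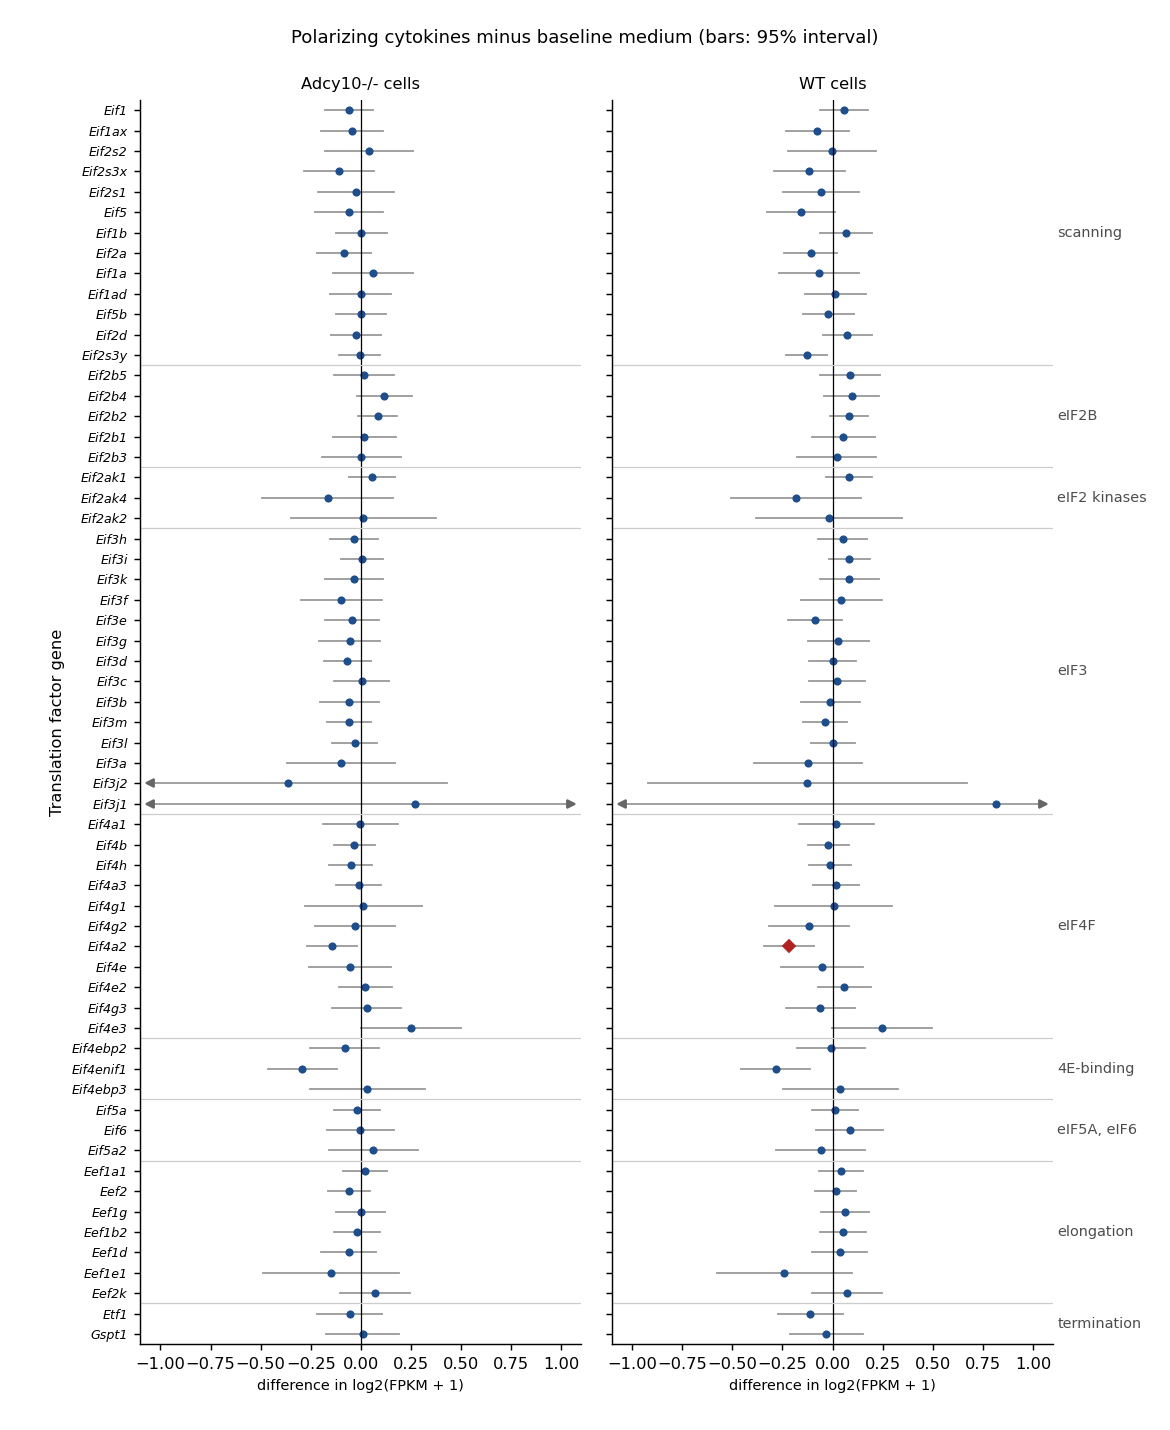
Difference in log2(FPKM + 1) between polarizing cytokines and baseline medium in Adcy10-/- cells (left) and WT cells (right) for the 61 tested members, with 95% intervals and arrows where an interval leaves the axis. The red diamond marks Eif4a2 in WT cells, the 1 member that passed without the block; most other points lie within 0.2 of 0.

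Regulators of translation outside the family were looked up in a list of 44 genes, all of them tested. With cytokines 1 of 44 rose and 1 fell in each genotype, the same 2 genes. That is near the share of all tested genes, 2.14% higher and 2.12% lower in Adcy10-/- cells and 2.65% higher and 2.28% lower in WT cells. Cyfip2, for a subunit of an actin-regulating complex whose relative Cyfip1 binds eIF4E, stood at 77.9, 65.4 and 75.9 FPKM in Adcy10-/- cells with cytokines, against 46.4, 51.5 and 52.7 FPKM at baseline. In WT cells it stood at 76.2, 68.3 and 78.8 FPKM with cytokines, against 48.6, 45.4 and 56.3 FPKM at baseline. It rose by 0.53 (SE 0.093, limma adjusted p = 0.00866) in Adcy10-/- cells and by 0.57 (SE 0.093, limma adjusted p = 0.00571) in WT cells, and the groups did not overlap. Hbs1l, for a factor that rescues stalled ribosomes, averaged 21.3 ± 0.327 FPKM in Adcy10-/- cells with cytokines and 25.3 ± 0.921 FPKM at baseline, and 21.0 ± 0.865 FPKM in WT cells with cytokines and 25.0 ± 1.29 FPKM at baseline (SD, n = 3 each). It fell by 0.23 (limma adjusted p = 0.0310) in Adcy10-/- cells and by 0.24 (limma adjusted p = 0.0242) in WT cells. Without the 4 libraries numbered 1, Cyfip2 differed by 0.43 in Adcy10-/- cells (limma adjusted p = 0.126) and by 0.53 in WT cells (limma adjusted p = 0.0461). Hbs1l then differed by -0.20 in Adcy10-/- cells (limma adjusted p = 0.241) and by -0.27 in WT cells (limma adjusted p = 0.0815). Leaving out each library in turn, Hbs1l passed in 6 of 12 fits in Adcy10-/- cells and 8 of 12 in WT cells, and Cyfip2 in 12 of 12 in each. With the block, 2 of the 44 rose and 1 fell in Adcy10-/- cells, against 4.74% and 5.98% of all tested genes. In WT cells 3 rose and 5 fell, against 7.41% and 7.43%. In WT cells Mknk2, for a kinase of eIF4E, was among those higher (0.16, limma adjusted p = 0.0356) and Ddx3x, for a helicase that aids initiation, among those lower (-0.29, limma adjusted p = 0.0258).

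Loss of Adcy10 was not accompanied by a detectable change in any translation factor gene. In cells with cytokines, at baseline and averaged over the media, 0 of 61 members passed in the limma fit, and 0 were at unadjusted p under 0.05. The background was also 0% in each, with 202, 118 and 180 of 10126 genes at unadjusted p under 0.05. The pairing check allows the fit with the block for the comparison with cytokines. That fit called 0 members there too, against 0% of all tested genes. Averaged over the media, which takes in the baseline comparison that did not count as paired, it called 0 members, against 0.0296%. With the block, unadjusted p was under 0.05 for 0 members with cytokines, 1 at baseline and 2 averaged over the media. The counts over all 10126 genes were 515, 375 and 560. The intervals bound the differences only by the spread between these samples. On the log2(FPKM + 1) scale, the 95% interval lay within 1.25-fold either way for 54 of 61 members with cytokines, against 73.6% of all tested genes. At baseline it did so for 54 (74.2%), and averaged over the media for 58 (89.3%). Within 1.5-fold it lay for 59 members in each. The 2 exceptions were Eif3j1 and Eif3j2, between which the split of reads is uncertain.

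The differences with the smallest p-values were small. With cytokines they belonged to Eif2d, for a factor that can place tRNA without eIF2, Eef1b2 and Eif1. Eif2d read 33.2, 32.1 and 33.9 FPKM in Adcy10-/- cells with cytokines, against 32.9, 36.9 and 37.3 FPKM in WT cells with cytokines. Eef1b2 read 688.5, 698.5 and 664 FPKM in Adcy10-/- cells with cytokines, against 702.5, 771 and 707 FPKM in WT cells with cytokines. The groups overlapped for Eif2d and not for Eef1b2. The differences were -0.10 (SE 0.056), -0.09 (SE 0.052) and, for Eif1, -0.09 (SE 0.055), each with limma adjusted p = 1.00. Members whose groups did not overlap were Eif2s3y, as higher (1.68% of all tested genes), and Eef1b2, Eef2k and Eif2b1, as lower (3.4%). Eif2b1, for the alpha subunit of eIF2B, read 38.8, 40.1 and 38.0 FPKM in Adcy10-/- cells with cytokines, against 40.3, 44.2 and 40.4 FPKM in WT cells with cytokines. At baseline its groups overlapped, at 37.2, 41.2 and 37.3 FPKM in Adcy10-/- cells, against 36.5, 39.6 and 44.4 FPKM in WT cells. Averaged over the media its difference was -0.07 (SE 0.051, limma adjusted p = 1.00).

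Summed markers of some other cells did not overlap between genotypes with cytokines either. The 6 macrophage and monocyte markers found, of 7 listed, summed to 21.3 to 28.0 FPKM in Adcy10-/- cells, against 29.0 to 102 FPKM in WT cells. Most of each of these sums was Lyz2. The 6 dendritic cell markers summed to 0.617 to 1.46 FPKM in Adcy10-/- cells, against 1.56 to 2.19 FPKM in WT cells. Of the dendritic cell markers, 5 stayed below 1 FPKM in all 12 libraries. The 5 NK cell markers, each below 1 FPKM throughout, summed to 0.0666 to 0.102 FPKM in Adcy10-/- cells with cytokines, against 0.120 to 0.199 FPKM in WT cells with cytokines. At baseline these summed to 0.187 to 0.353 FPKM in Adcy10-/- cells, against 0.210 to 0.256 FPKM in WT cells, above the cytokine group of the same genotype. The part of these cells in the members' differences was not tested.

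At baseline the smallest p-values belonged to Eif3j1, Eef2k and Eif2s3y. Eef2k read 2.17, 2.59 and 2.75 FPKM in Adcy10-/- cells, against 2.57, 2.76 and 2.99 FPKM in WT cells. With cytokines it read 2.80, 2.51 and 2.71 FPKM in Adcy10-/- cells, against 2.92, 2.92 and 3.02 FPKM in WT cells. The groups overlapped at baseline and not with cytokines, and the difference was -0.11 (SE 0.080) in each medium and -0.11 (SE 0.056) averaged over them (limma adjusted p = 1.00 for each). No member had groups without overlap at baseline, against 2.57% of all tested genes as higher and 2.42% as lower.

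Eif2s3y, the Y-linked copy of the eIF2 gamma subunit, gave the smallest p-value for a difference in the cytokine effect between genotypes. It read 33.2, 34.5 and 33.1 FPKM in Adcy10-/- cells with cytokines, against 34.3, 32.8 and 34.0 FPKM at baseline. In WT cells it read 31.7, 31.9 and 32.6 FPKM with cytokines, against 36.7, 35.4 and 33.5 FPKM at baseline. The WT groups did not overlap while the Adcy10-/- groups did. The interaction was 0.13 (SE 0.066, limma adjusted p = 1.00), and 0 of 61 members and 0% of all tested genes passed, with 0 members and 112 genes at unadjusted p under 0.05. Next came Eif1, at -0.11 (SE 0.077), and Eif3k, at -0.12 (SE 0.094). Eif3k read 379.8, 373.5 and 348 FPKM in Adcy10-/- cells with cytokines, against 406, 358 and 364 FPKM at baseline, and 376, 407 and 351 FPKM in WT cells with cytokines, against 369.6, 348 and 351 FPKM at baseline. For the interaction the 95% interval lay within 1.25-fold for 43 of 61 members, against 43.8% of all tested genes.

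**Figure D5:**
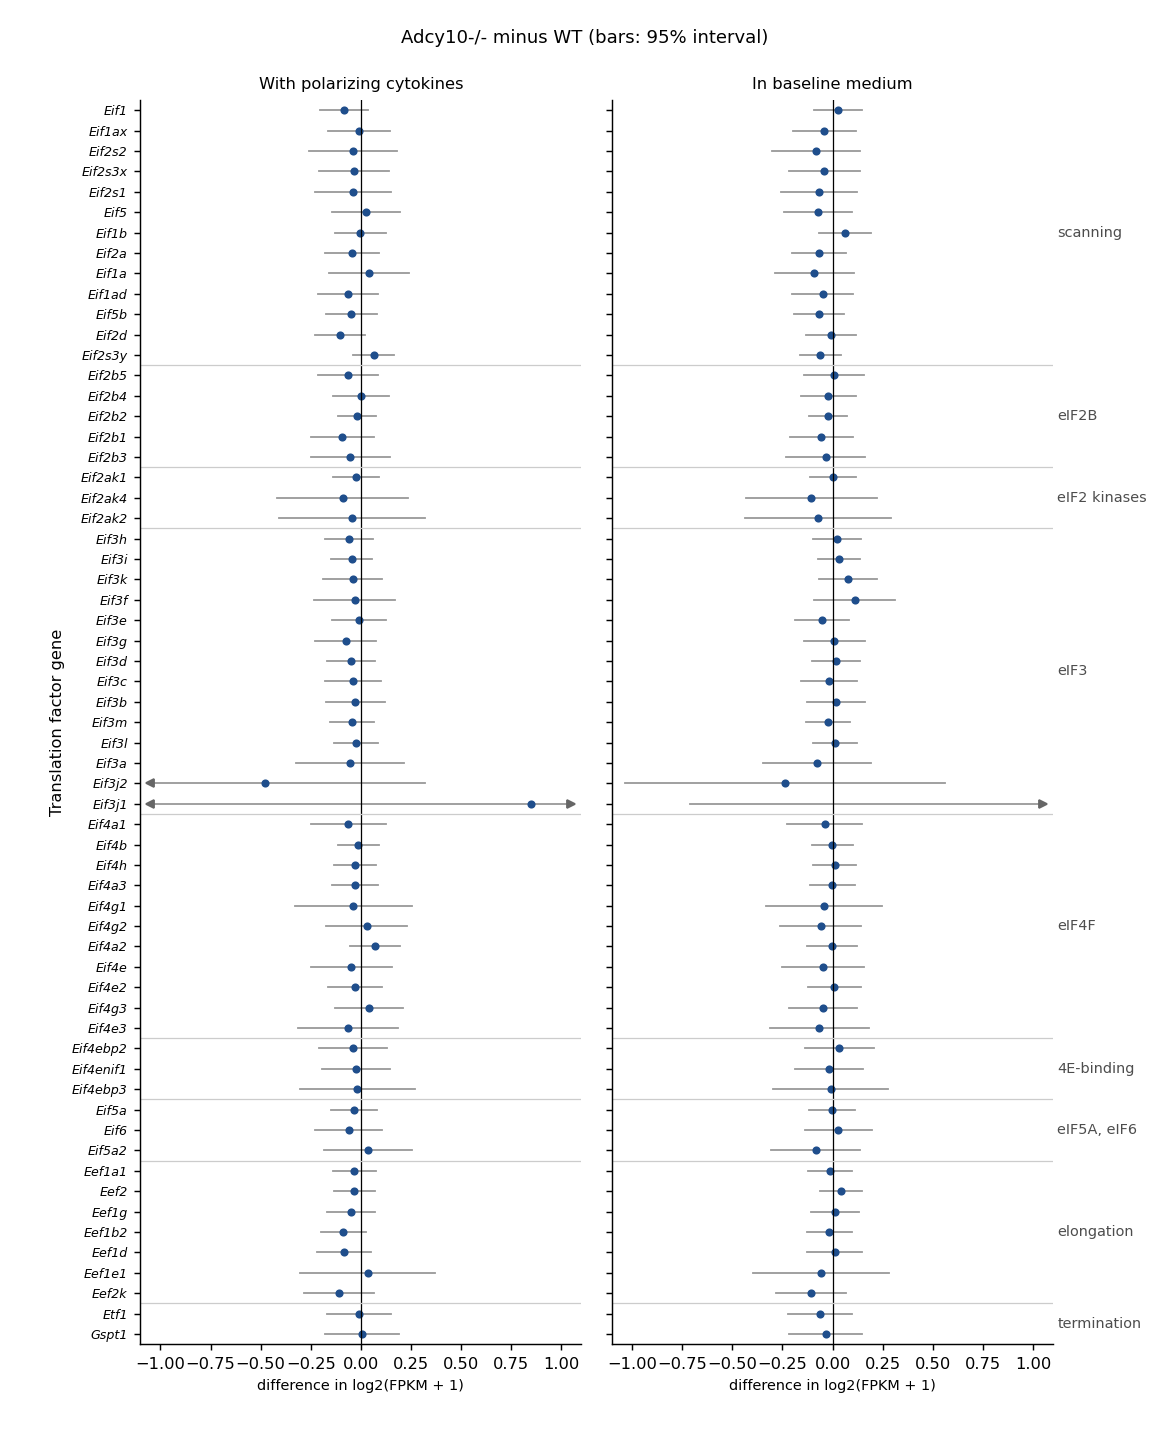
Difference in log2(FPKM + 1) between Adcy10-/- and WT cells with polarizing cytokines (left) and in baseline medium (right) for the 61 tested members, with 95% intervals and arrows where an interval leaves the axis. The baseline point of Eif3j1, at 1.39, lies beyond the axis, and all members but the Eif3j copies lie between -0.11 and 0.11.

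More members lay below 0 than above it in the genotype comparisons, though none passed. With cytokines 11 of 61 differences were above 0, against 43.0% of all tested genes, with a median of -0.04 against -0.01. At baseline 20 of 61 were above 0, against 47.5%, with a median of -0.02 against 0.00. With median-ratio scaling the count with cytokines was 16 of 61, against 50.8% of all tested genes, with a median of -0.02. With quantile normalization it was 33 of 61, against 52.2%, with a median of 0.00. That direction was thus kept with median-ratio scaling and lost with quantile normalization. At baseline the count was 24 of 61 with median-ratio scaling (50.3%) and 15 of 61 with quantile normalization (49.6%). Averaged over the media, 7 of 61 were above 0, against 43.8% of all tested genes. The count was then 14 of 61 with median-ratio scaling (51.1%) and 21 of 61 with quantile normalization (51.3%).

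Many members differed with the replicate number. In the 4 libraries numbered 1, 20 of 61 members were lower than in all other 8 libraries, against 7.19% of all tested genes, and 1 was higher, against 4.01%. With median-ratio scaling or quantile normalization the lower count was 14, against 5.94% and 6.18%. For libraries numbered 2, 0 members were lower and 0 higher (1.03% and 0.286%), and for those numbered 3, 1 was lower and 3 were higher (0.553% and 4%). Replicate 1 lay below the mean of replicates 2 and 3 by a median of -0.09 over the members, against -0.02 over all tested genes, and 33 members lay below in all 4 groups, against 28.9% of all tested genes.

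By role group, the 20 members included 5 of 13 of the scanning group, 5 of 11 of the eIF4F group, 3 of 14 eIF3 subunits and 2 of 7 of the elongation group. These counts take in Eif1ad (scanning group), Eif4a3 (eIF4F group) and Eef1e1 (elongation group). The largest difference was that of Eef1e1, at 64.5 to 76.8 FPKM in the libraries numbered 1 and 82.6 to 107 FPKM in the others. Eif4g1 followed among members averaging above 10 FPKM, at 125 to 134 FPKM against 140.2 to 172 FPKM, and Eif4a1 lay at 778 to 788.5 FPKM against 848 to 947.5 FPKM. The most abundant elongation genes did not share this: Eef1a1, Eef2, Eef1g and Eef1b2 overlapped, with differences of 0.04, 0.04, 0.06 and 0.03. Eif3f, for an eIF3 subunit, was the member higher in all 4 libraries numbered 1, at 305 to 341 FPKM against 262 to 304 FPKM.

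Markers of B cells moved with the replicate number too. The summed FPKM of 8 B cell markers was 2.67 to 13.9 in the libraries numbered 1 and 33.0 to 93.7 in the other 8, with 7 of the 8 markers lower in all 4 than in all others. Pax5, a defining B cell factor, was at 0 to 0.822 FPKM in the libraries numbered 1 and 3.03 to 6.36 FPKM in the others. The summed CD4 T cell markers were 1633 to 1750 FPKM in the libraries numbered 1 and 1327 to 1577 FPKM in the others. By group the summed B cell markers overlapped, at 7.92 to 40.8 FPKM in Adcy10-/- cells with cytokines, 3.47 to 55.0 FPKM in WT cells with cytokines, 13.9 to 57.8 FPKM in Adcy10-/- cells at baseline and 2.67 to 93.7 FPKM in WT cells at baseline. All 5 NK cell markers stayed below 1 FPKM in every library, and the 2 CD8 markers summed to 8.43 to 14.7 FPKM. Of the CD8 markers, Cd8a read 0.0673 to 0.225 FPKM in the libraries numbered 1 and 0.933 to 2.52 FPKM in the others. Cd8b1 overlapped, at 8.76 to 10.3 FPKM and 7.49 to 12.2 FPKM. Of the 6 dendritic cell markers, 1 was lower in all 4 libraries numbered 1: Zbtb46, at 0.260 to 0.716 FPKM against 0.758 to 1.66 FPKM. Neutrophil markers summed to 0.447 to 66.6 FPKM and red cell markers to 0.446 to 168 FPKM. Every group holds 1 library numbered 1. The part of these cells in the members' differences was not tested. Without the 4 libraries numbered 1, 0 members passed in each of the 6 contrasts.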

How the data were processed

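The authors deposited 1 file of FPKM values per library. The submitters' processing notes name the build mm9 and the tools STAR 2.4.0f1, SAMtools 0.1.19, Cufflinks and HTSeq, without their settings; other steps are not given in the sources used here. Each file held 24488 entries, and the 258 repeated names (755 entries) were summed. No further scaling was applied. Members, role groups, the 44 regulators and the marker lists were chosen with earlier results of these data known.

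Values were analysed as log2(FPKM + 1) with limma 3.58.1 in R 4.3.3: 4 group means, a trend of variance with expression, 6 contrasts, and Benjamini-Hochberg adjustment over the 10126 tested genes of 16728 above 0 in any library. Intervals are 95%. The fit was also run on simulated data with independent noise in each library. That simulation lacks the shared deviations of same-numbered libraries, so it does not test the fit under them. Figures used Python 3.11.15 and matplotlib 3.10.9. Values of every library are printed for members that passed, for the highest member of each role group with at least 3 tested members, and for the 3 smallest p-values where no member passed; other members named were chosen after their values were seen, or from pairs of gene copies.

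Whether replicate numbers pair libraries was checked on deviations from group means. Same-numbered libraries correlated at 0.401 to 0.532 for cytokines in Adcy10-/- cells, 0.294 to 0.536 for cytokines in WT cells, 0.262 to 0.422 between genotypes with cytokines, and 0.0736 to 0.523 between genotypes at baseline; all but the last count as paired. Differently numbered libraries of different groups correlated at -0.560 to 0.366, with a median of -0.23 against 0.35 for same-numbered ones, so the ranges overlap. Alternatives covered the pseudocount, the filter, scaling, the variance trend, libraries in the fit, the block and repeated names.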

Additional observations from a re-analysis of the deposited data

How the results depend on the processing

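The count of members passing for cytokines in Adcy10-/- cells was 0 with all libraries and no block, and 1 with median-ratio scaling, with only the 2 groups compared, with the replicate block and with the replicate block within genotype; leaving out each library in turn gave 0 to 1. In WT cells the count was 1, and 3 with either replicate block. It was 0 with a pseudocount of 0.1, no filter, a mean of at least 5 FPKM, no variance trend, only the 2 groups compared and without the 4 libraries numbered 1; leaving out each library in turn gave 0 to 1. With median-ratio scaling or quantile normalization it was again 1, with Eif4enif1 (limma adjusted p = 0.0422 and 0.0418) in place of Eif4a2 (0.0908 and 0.100). Eif4a2 passed in WT cells in 6 of 24 alternatives (log2 difference -0.26 to -0.18) and Eif4enif1 in 6 of 24 in each genotype. Counts over all genes ran from 196 to 1193 (432 without a block) in Adcy10-/- cells and from 164 to 1574 (499) in WT cells. The genotype and interaction contrasts gave 0 members in each alternative run, the replicate block included, which called 0 members at baseline, for the average (where 3 genes passed) and for the interaction. Summing Eif3j1 and Eif3j2 was added after the data were seen. Eif4a2, Eif4enif1, Eef1e1, Cyfip2 and Hbs1l kept their sign for cytokines in each alternative, and Hbs1l passed in 14 of 24 in Adcy10-/- cells and 18 of 24 in WT cells. The median over the members, near 0 throughout, changed sign in 4 contrasts. For cytokines in WT cells it was 0.01, -0.03 with quantile normalization and without WT baseline replicate 1, and -0.02 and -0.01 without WT cytokines replicate 2 and 3. Between genotypes at baseline it was -0.02, and 0.02 without WT baseline replicate 3 and 0.01 without Adcy10-/- baseline replicate 1. With cytokines it was -0.04, and 0.00 with quantile normalization; for the interaction it was -0.02, 0.02 with quantile normalization, 0.01 without WT baseline replicate 1, and 0.00 without Adcy10-/- baseline replicate 3 and without WT cytokines replicate 3. FPKM hides depth, so what depth limits is unknown; the cause of these shifts was not tested.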
